A study of Mus musculus with 2 samples.

Results

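The voltage-gated calcium and sodium channel subunit genes were described here in a ChIP-seq profile of Brg1 in mouse medulloblastoma. The set was a named list of 32 of the 21627 protein-coding genes of the annotation, 23 for calcium channels and 9 for sodium channels. Every enriched region (island) of the deposited list that lay in such a gene or within 5 kb of it was taken. An island with any base within 5 kb of a gene end was called gene-end, and one further inside the gene was called interior. Of the 32 genes, 12 had an island, and they held 29 islands of the 5727 in the list. The genes were selected on channel family with the island counts of this list known, and Cacna2d1 was chosen by its number of islands, so these counts are descriptions and no test was made.

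Brg1, encoded by Smarca4, is an ATPase of the BAF (SWI/SNF) complexes, which move nucleosomes. The chromatin came from dissociated, crosslinked primary tumours that formed spontaneously in mice of genotype CAG-CreER, Rosa26-SmoM2. SmoM2 is an active form of Smoothened, the transducer of Hedgehog signals, and CAG is a promoter active in most cell types, so expression of CreER was not limited to 1 lineage. There was 1 ChIP library, made with the J1 antibody, which recognises Brg1 and its paralogue Brm, and 1 input library from the same kind of tumour without antibody, which was not analysed here. The sources used here give neither the number nor the age of the animals, and no value has an error between animals.

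Voltage-gated calcium channels are built around a pore-forming alpha1 subunit, whose L-type, P/Q-, N- and R-type and T-type classes differ in their gating and drug sensitivity. The cytoplasmic beta and the extracellular alpha2delta subunits carry the pore to the membrane and tune its gating, while most neuronal gamma subunits serve as auxiliary subunits of AMPA-type glutamate receptors. Sodium channels pair a pore-forming alpha subunit with smaller beta subunits and start the action potential. In the cerebellum some of these genes are known for the firing and transmitter release of granule and Purkinje neurons, and mutations in several of the set cause ataxia in mice.

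The list held islands of 27 reads or more, with a median of 68 reads and a median width of 2200 bp, and 472238 reads in all. Reads outside islands, and so the library's full depth, are not known. Marker lists were chosen with earlier results of these data known, so their counts are no check of the tissue label. An island lay at 10 of 10 granule lineage and Hedgehog genes (such as Atoh1, Barhl1 and Gli1), beside 16.9% of all protein-coding genes. It lay at 0 of 6 microglial, 1 of 5 endothelial (Cdh5, 50 reads) and 1 of 5 oligodendrocyte (Mbp, 64 reads) markers. The endothelial and oligodendrocyte shares, 20% each, were near that of all genes. It lay at 0 of 3 Purkinje neuron (Calb1, Pcp2 and Car8) and 0 of 3 liver markers. An island is a sign of the ChIP signal and not of expression, and a higher count from more cells bound or from more binding per cell cannot be told apart. A gene with no island is not shown to lack Brg1, since a region below the limit of the caller has no entry.

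Among the channel genes, 12 of 32 (37.5%, Wilson 95% interval 22.9 to 54.7) had an island in the gene or within 5 kb, beside 16.9% of all protein-coding genes. A gene-end island was present in 6 of 32 (18.8%, 8.89 to 35.3), beside 13.1%, and an interior island in 9 of 32 (28.1%, 15.6 to 45.4), beside 5.49%. Cacna1a, Cacna2d1 and Cacna2d3 had both kinds. Cacnb4, Cacng5 and Scn3b had a gene-end island alone, and Cacna1c, Cacna1d, Cacna1s, Cacng2, Cacng4 and Scn8a had interior islands alone. Of the 29 islands 23 were interior and 6 gene-end, and none was shared by a pair of channel genes. These intervals and those below cover counting error only.

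Channel genes are long, and long genes have more room for islands. The median length was 113 kb in the 32 genes and 17.3 kb in all protein-coding genes. Among genes of 200 kb and over, 6 of 8 channel genes had an island, beside 48.1% of all such genes. Between 100 and 200 kb it was 2 of 11, beside 34.3%, between 20 and 100 kb it was 4 of 10, beside 19.5%, and under 20 kb it was 0 of 3, beside 10.4%. In the class of 100 to 200 kb, which holds all 6 sodium channel alpha genes, the share of channel genes was thus the lower of the pair. By kind of island, gene-end islands were present in 0 of 3 channel genes under 20 kb, beside 10.3%, and in 2 of 10 between 20 and 100 kb, beside 15.2%. Interior islands were present in 0 of 3, beside 0.197%, and in 2 of 10, beside 6.2%. At least 3 islands were found in 4 of the 32 genes, beside 1.29%, and at least 4 in 2, beside 0.555%.

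**Figure D1:**
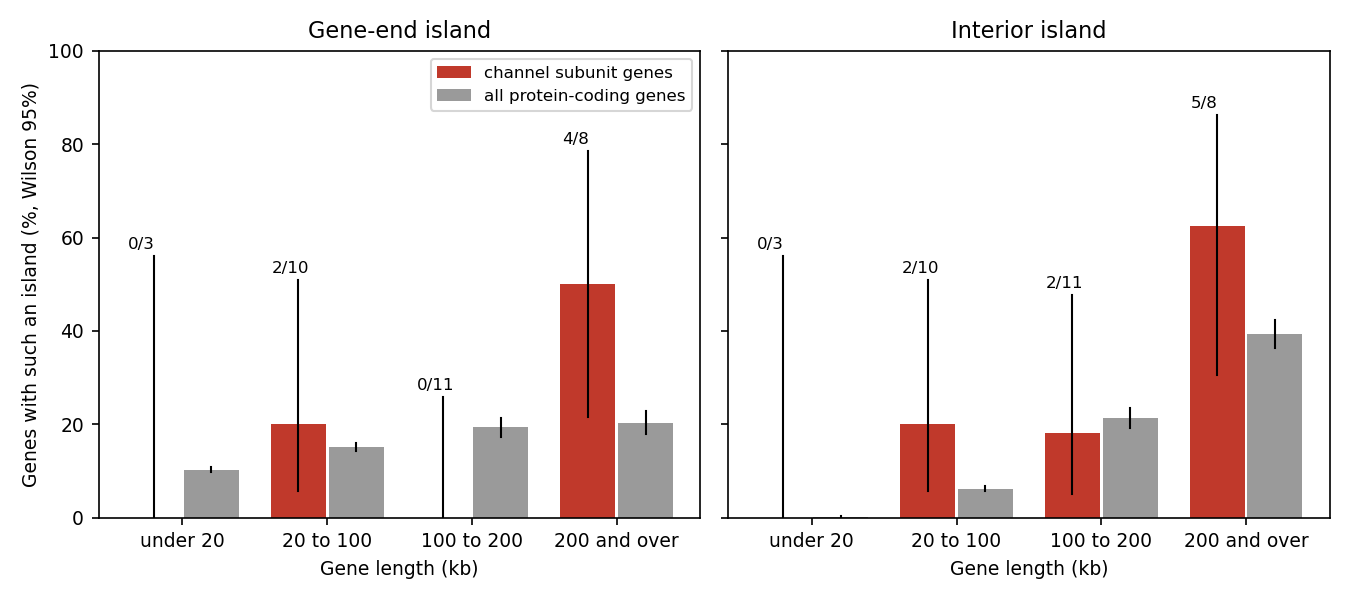
Share of genes with a gene-end island (left) and an interior island (right) by gene length in kb, for channel subunit genes (red, with the number of genes above) and all protein-coding genes (grey), with Wilson 95% intervals as lines. Among genes of 200 kb and over, a gene-end island was present in 4 of 8 channel genes and 20.3% of all genes, and an interior island in 5 of 8 and 39.3%, and between 100 and 200 kb in 0 of 11 and 19.3%, and in 2 of 11 and 21.4%.

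The alpha2delta genes held 14 of the 29 islands, 10 of them at Cacna2d1. This gene encodes the first alpha2delta subunit, the binding site of gabapentin and a receptor for thrombospondins in synapse formation. It is 440.2 kb long (chromosome 5, 15934264 to 16374511, mm10), and its islands made up 34.5% of the islands and 41.8% of the island reads of the 32 genes. They covered 7.57% of the gene, and their 983 reads lay over 34.4 kb. At 2.22 islands per 100 kb, counted with 5 kb on each side, the gene stood beside 0.219 per 100 kb for the list as a whole.

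The first island of Cacna2d1 spanned the annotated start (chromosome 5, 15933183 to 15940182). It was 7000 bp wide and held 195 reads (exact Poisson 95% interval 169 to 224), which ranked it 76 of 5727 by reads and 40 by width. It reached from 1508 bp upstream to 5491 bp downstream of the start, so most of it lay inside the gene. The island also covered the start of Gm3510, a lncRNA on the opposite strand whose gene ends at the base before Cacna2d1. Of 1368 islands across a protein-coding start, with a median of 72 reads and 2400 bp, 20 had 195 reads or more and 13 were at least as wide, this island included. Its reads were those of an ordinary island of its width: 5.57 reads per 200 bp, and percentile 44.4 of the 9 islands of 7000 bp.

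The other 9 islands of Cacna2d1 were interior. Those with the most reads (133, 129 and 110) lay at 51.8, 67.7 and 90.2 kb, but the one at 55.6 kb held 58. Island midpoints stood 51.8, 55.6, 67.7 and 90.2 kb downstream of the start, with 133 (111 to 158), 58 (44.04 to 74.98), 129 (108 to 153) and 110 (90.4 to 133) reads. Those islands were 4200, 1800, 4800 and 4600 bp wide. Further down the gene, a pair at 153 and 158 kb held 77 (60.8 to 96.2) and 54 (40.6 to 70.5) reads. Single islands at 229.6, 303 and 331 kb held 98 (79.6 to 119), 68 (52.8 to 86.2) and 61 (46.7 to 78.4). The start island exceeded every interior island beyond the Poisson intervals, whereas those at 51.8, 67.7, 90.2 and 229.6 kb overlapped one another.

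Islands of Cacna2d1 thinned along the gene. By midpoint 7 of the 10, with 756 reads, lay nearer to the start than to the far end, and 3, with 227 reads, lay beyond. The last 108 kb, or 24.5% of the gene, held none. Gaps between neighbours ran from 0.8 kb, between the second and the third island, to 70.4 kb, with a median of 26 kb. The fourth island, at 67.7 kb, covered the start of Gm43000, a lncRNA inside Cacna2d1 on the opposite strand, and the third overlapped the far end of that lncRNA. No other interior island of the gene lay within 10 kb of an annotated start of any gene.

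**Figure D2:**
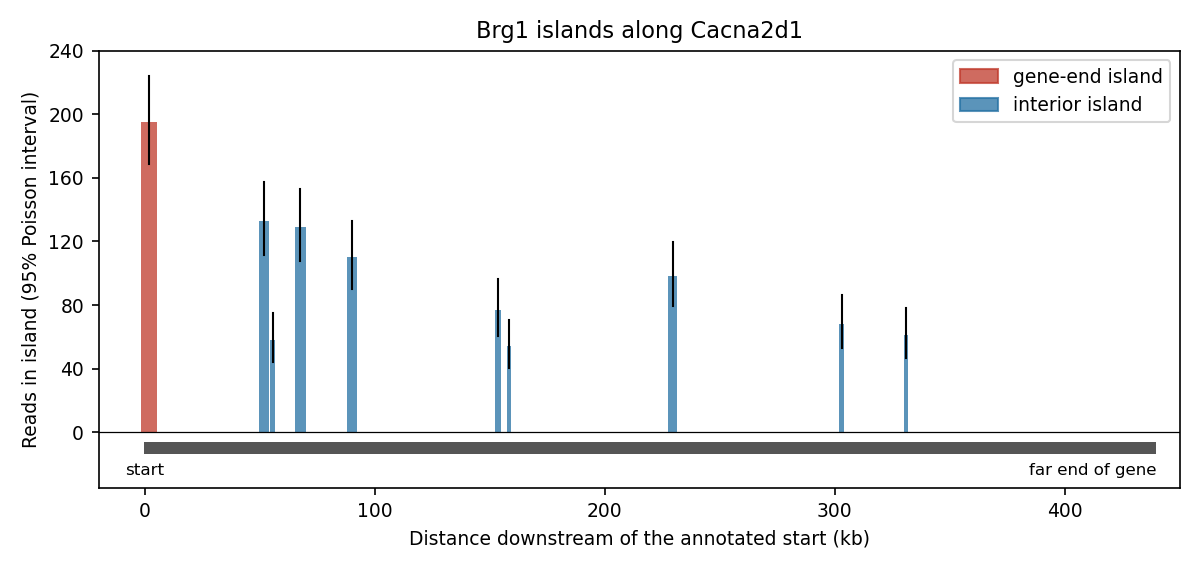
Brg1 islands along Cacna2d1, with distance downstream of its annotated start in kb on the horizontal axis and reads in each island on the vertical axis (black lines, exact Poisson 95% intervals). Bar width is the width of the island to scale, red is the gene-end island and blue the interior ones, and the grey bar is the gene. The island at the start holds 195 reads, the interior ones 54 to 133, and the last 108 kb hold none.

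Outside Cacna2d1, the next island lay 999.2 kb below the first, with 36 reads, and 3960.4 kb above the last, with 114 reads, while the median gap between neighbouring islands of the list was 137 kb. Of 5707 gaps in the list, 10.6% were at least as long as the lower one and 1.45% at least as long as the upper one. Within these 5.29 Mb the annotation has 16 protein-coding genes. Among them are Hgf, the ligand of the Met receptor, the semaphorin gene Sema3c and the G protein gene Gnai1. Those below Cacna2d1 are all short Gm or Speer4 genes, such as Speer4d of 4766 bp, and how well reads map there was not tested. Of the 16, Cacna2d1 was the 1 with an island in the gene or within 5 kb. That count follows from the limits of the interval, which was drawn between the nearest islands outside Cacna2d1.

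Among genes of its size the number of islands varied widely. Of the 3 genes next above and the 3 next below it in length (437.6 to 445.8 kb), Atp8a2 had 3 islands, Thsd7a, Tshz2, Agap1 and Plxna4 had 1 each and Slc4a4 had none. Of 242 genes of 350 to 550 kb, 117 had an island, with a median of 0 and a mean of 1.15 per gene, and 3 had 10 or more: Gse1 with 22, Nfia with 18 and Cacna2d1 itself. Across all protein-coding genes 5 (0.0231%) had 10 or more, and 3 of those had more than Cacna2d1.

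**Figure D3:**
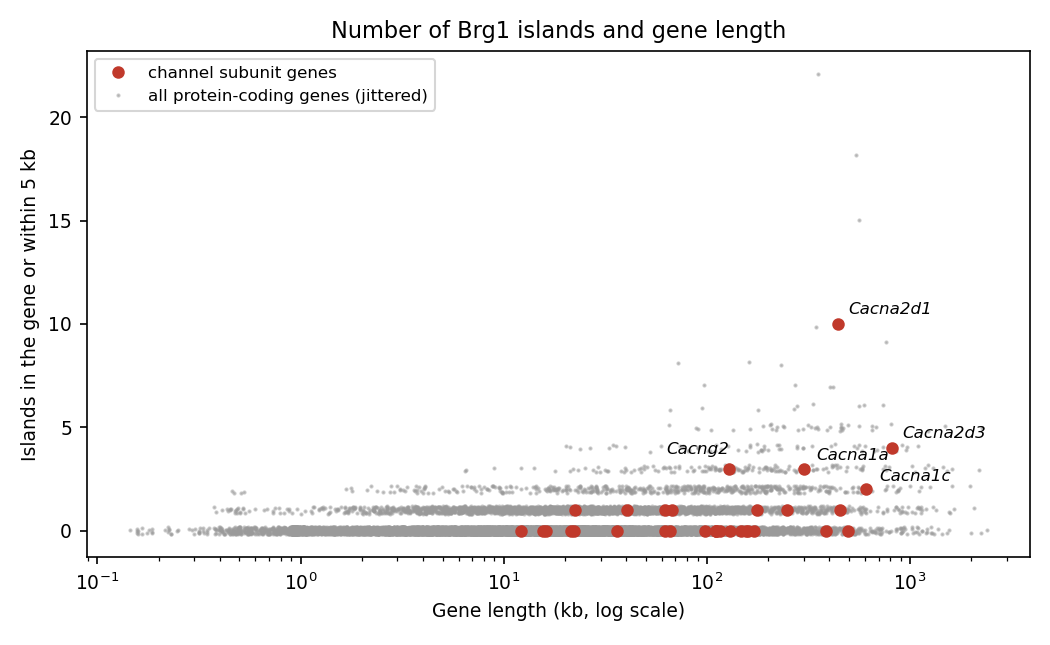
Number of islands in each gene or within 5 kb (vertical axis) against gene length in kb (horizontal axis, log scale), for channel subunit genes (red) and all protein-coding genes (grey, jittered vertically). Cacna2d1 has 10 islands, Cacna2d3 4, Cacna1a and Cacng2 3 each and Cacna1c 2, and the remaining channel genes have 1 or 0.

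The other alpha2delta genes had fewer islands. Cacna2d3, which encodes the third alpha2delta subunit and is at 818 kb the longest of the 32 genes, had 4. One of 41 reads (29.4 to 55.6) lay upstream of the annotated start, its edge 351 bp away (chromosome 14, 29722215 to 29723214), and interior islands held 60, 51 and 54 reads. The start island of Cacna2d3 was thus narrow (1000 bp) and weak beside the 7000 bp and 195 reads at Cacna2d1. Cacna2d2, the subunit lost in the ducky mouse with its cerebellar ataxia, and Cacna2d4, known from photoreceptors, had none, with the nearest island 81.5 and 156 kb away.

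The start windows of Cacna2d1, Cacna2d3 and Cacna2d2 are shown because their ChIP signal differed while each was rich in CpG. Cacna2d4 had no entry among the annotated starts, so its CpG content is not known here. Each window runs from 250 bases before to 50 after the annotated start, 5′ to 3′ on the gene's strand. CpG dinucleotides are in capitals, and the sequence is from RefSeq on GRCm38.p6. The window of Cacna2d1 is chr5:15934441-15934740 on the plus strand and lies wholly in an island. That of Cacna2d3 is chr14:29721815-29722114 on the minus strand and lies beside an island. That of Cacna2d2 is chr9:107399630-107399929 on the plus strand, 211 kb from an island.
Cacna2d1: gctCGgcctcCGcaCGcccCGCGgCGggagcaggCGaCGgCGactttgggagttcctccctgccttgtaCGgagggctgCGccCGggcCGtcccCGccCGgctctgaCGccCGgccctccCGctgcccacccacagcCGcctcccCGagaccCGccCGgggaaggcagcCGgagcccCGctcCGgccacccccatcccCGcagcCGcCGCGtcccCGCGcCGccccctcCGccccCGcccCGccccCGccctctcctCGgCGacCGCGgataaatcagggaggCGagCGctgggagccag
Cacna2d3: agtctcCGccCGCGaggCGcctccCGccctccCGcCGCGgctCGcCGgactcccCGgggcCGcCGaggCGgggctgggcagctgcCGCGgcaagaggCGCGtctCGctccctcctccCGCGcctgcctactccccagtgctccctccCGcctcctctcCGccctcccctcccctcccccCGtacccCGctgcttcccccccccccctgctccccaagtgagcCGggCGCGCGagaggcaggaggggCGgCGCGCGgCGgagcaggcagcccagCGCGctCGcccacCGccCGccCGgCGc
Cacna2d2: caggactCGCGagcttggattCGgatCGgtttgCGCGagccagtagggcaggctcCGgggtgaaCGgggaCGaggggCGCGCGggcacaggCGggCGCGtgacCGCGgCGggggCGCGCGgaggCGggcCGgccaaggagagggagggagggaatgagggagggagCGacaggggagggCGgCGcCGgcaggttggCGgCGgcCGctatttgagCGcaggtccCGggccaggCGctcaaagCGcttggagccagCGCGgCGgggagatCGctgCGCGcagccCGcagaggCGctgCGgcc
Cacna2d1 holds 42 CpG at 80% G and C, Cacna2d3 holds 41 at 81.3% and Cacna2d2 holds 43 at 75.7%, while the median over the 32851 start windows of all genes was 7 CpG and 52.7%.

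The table of starts held 36 starts for 25 of the 32 genes, 9 of them with more than 1 start. Their CpG number ran from 2 to 63 with a median of 11.5, and 1 of the 36 lay in an island (Cacna2d1). Another 2 had an island within 5 kb, Cacna2d3 and the most downstream of the 3 starts of Cacna1c. By gene, 3 of the 25 had an island within 5 kb of a start, beside 11.1% of the genes in the table, and 1 of 25 had an island across a start, beside 8.57%. By CpG number the starts came in the order Cacna1d (63 CpG, 179.7 kb from the nearest island), Cacna1c (57, 27.5 kb), Cacna2d2 (43, 211 kb), Cacna2d1 (42, inside an island) and Cacna2d3 (41, 0.351 kb), so starts rich in CpG lay both at islands and far from them.

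Short motifs were sought in these windows on both strands. None of the 9 was present in the Cacna2d1 window. CAGCTG, an E-box, was found in 11 of 36 windows (30.6%), beside 16.3% of all windows, and the E-box CACCTG in 7 (19.4%), beside 20.2%. TTGGC, the nuclear factor I half-site, was found in 14 (38.9%), beside 46.7%, and TGACAG, a Meis motif, in 5 (13.9%), beside 19.2%. CGCGCG was found in 4 (11.1%), beside 11.3%. CATATG and TGACGT were each in 1 (2.78%), beside 3.91% and 7.51%, and ACCACCC, a part of the Gli site, and TATAAA were each in 2 (5.56%), beside 4.61% and 13.6%. No letter string contains another, and a match is a description of the sequence only.

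Of the 9 alpha1 genes, which encode the calcium pores, 4 had islands, 7 in all, beside 16.9% of all protein-coding genes with one. Their median length was 159 kb (range 62.05 to 610 kb). An island was present in 34.3% of all genes of 100 to 200 kb and in 48.1% of those of 200 kb and over. Median lengths were 285 kb for alpha2delta, 135 kb for beta, 51.4 kb for gamma, 151 kb for sodium alpha and 15.5 kb for sodium beta genes. The small subunit classes thus differ in length, and their counts were not compared. All 3 L-type genes of the set had interior islands, beside 5.49% of all genes, and none had a gene-end island, beside 13.1%. Cacna1c (610 kb) and Cacna1d (451 kb) are long, and 39.3% of all genes of 200 kb and over had an interior island and 20.3% a gene-end one. For genes of 20 to 100 kb, the class of Cacna1s (67.0 kb), the shares were 6.2% and 15.2%. Cacna1c, the main L-type pore of heart and brain, had islands of 100 (81.4 to 122) and 55 (41.4 to 71.6) reads. The stronger one (chromosome 6, 118751983 to 118755582) lay 2392 bp downstream of the most downstream of its annotated starts, deep inside the gene. That start window, chr6:118757925-118758224 on the minus strand, is shown because it was the only interior start in the table, which covers 25 of the 32 genes, with an island within 5 kb, again with CpG in capitals.
Cacna1c: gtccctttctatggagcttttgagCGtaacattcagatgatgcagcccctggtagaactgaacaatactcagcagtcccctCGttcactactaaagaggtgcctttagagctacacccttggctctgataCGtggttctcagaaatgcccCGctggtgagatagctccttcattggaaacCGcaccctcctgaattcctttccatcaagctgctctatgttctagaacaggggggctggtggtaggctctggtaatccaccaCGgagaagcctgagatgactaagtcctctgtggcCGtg
It holds 7 CpG at 51.3% G and C. Cacna1d, the low-threshold L-type pore, had 1 interior island of 87 reads (69.7 to 107). Cacna1s, the pore of skeletal muscle, had 1 of 59 (44.9 to 76.1) whose edge lay 14.6 kb from a gene end, the least among the 23 interior islands of the 32 genes.

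In the P/Q-, N- and R-type class 1 of 3 genes had islands, beside 16.9% of all protein-coding genes. Cacna1a encodes the P/Q-type pore, which drives transmitter release from granule cell axons and is mutated in ataxic mice. It had 3 islands, 2 of them interior with 59 (44.9 to 76.1) and 72 (56.3 to 90.7) reads. The third, of 92 reads (74.2 to 113), lay across the higher-coordinate end of the gene (chromosome 8, 84638102 to 84640701) and overlapped the lncRNA Gm39212. The N-type gene Cacna1b and the R-type gene Cacna1e had none, with the nearest island 291 and 178 kb away, although Cacna1e is 494 kb long. The T-type genes Cacna1g, Cacna1h and Cacna1i, whose channels open near the resting potential, had none either, at 74.1, 99.4 and 29.9 kb from one.

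Of the 4 beta genes only Cacnb4, the gene mutated in the ataxic lethargic mouse, had an island, beside 16.9% of all protein-coding genes. Its 75 reads (59.0 to 94.0) lay outside the gene, 2040 bp from the end opposite to its start (chromosome 2, 52423481 to 52426280). That island covered the start of Arl5a, a neighbouring gene for a small GTPase, and the annotated starts of Cacnb4 were at least 132 kb away. Cacnb1, Cacnb2 and Cacnb3 had none. Cacnb2 is 385 kb long, and its nearest island was 3038 kb away, the farthest of the 32 genes.

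Of the 6 gamma genes, Cacng2, Cacng4 and Cacng5 had islands, beside 16.9% of all protein-coding genes. Cacng2 encodes stargazin, which brings AMPA receptors to the surface of cerebellar granule cells, and it had 3 interior islands of 75 (59.0 to 94.0), 74 (58.1 to 92.9) and 86 (68.8 to 106) reads. They were 2600, 3000 and 3400 bp wide and lay close together, and at 2.17 islands per 100 kb the gene was near Cacna2d1 in spacing, on a length of 128 kb. The nearest of them stood 44.9 kb from the annotated start. Cacng4, which encodes another auxiliary subunit of AMPA receptors, had 1 interior island of 79 reads (62.5 to 98.5). Cacng5 had 1 of 72 reads (56.3 to 90.7) inside the gene, 0.483 kb from the end opposite to its start. Cacng3, Cacng7 and Cacng8, of the same receptor role, had none. The nearest island to Cacng7 and Cacng8, which are neighbours on chromosome 7, was 768 and 719.7 kb away.

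**Figure D4:**
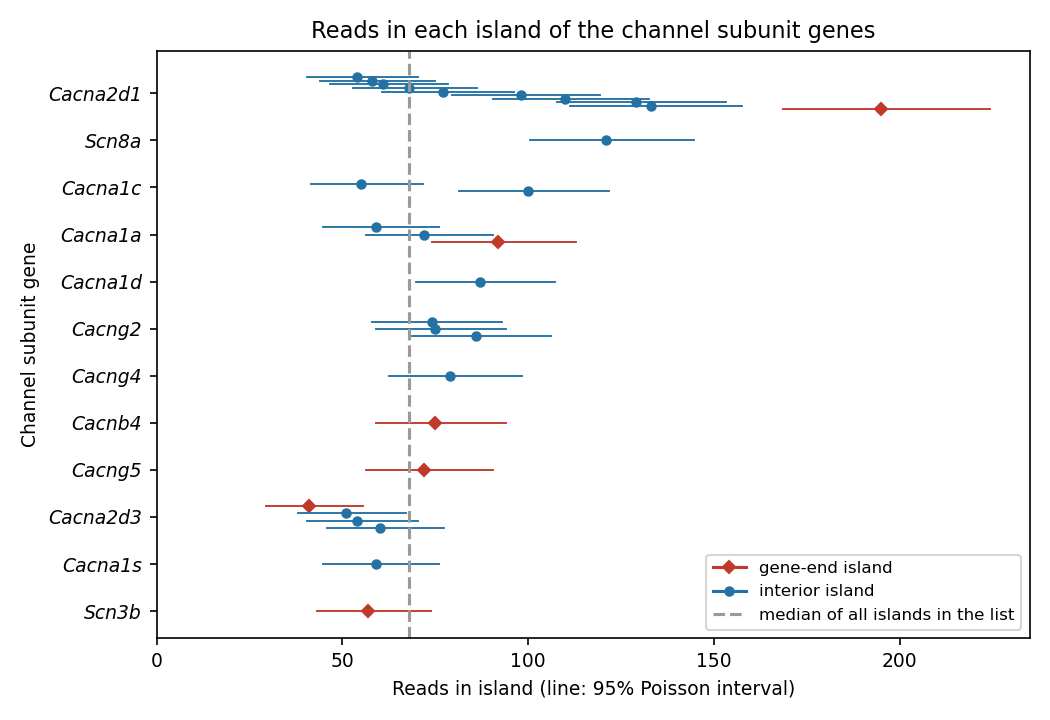
Reads in each of the 29 islands (horizontal axis, with exact Poisson 95% intervals as lines) for the 12 channel genes that had one, ordered by their strongest island. Red diamonds are gene-end islands, blue circles interior ones, and the dashed line is the median of the list, 68 reads. Cacna2d1 spans 54 to 195 reads, the 4 islands of Cacna2d3 lie between 41 and 60, and Scn8a has 121.

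Sodium channel genes had islands in 2 of 9, beside 16.9% of all protein-coding genes, and 2 islands in all. Scn8a encodes the alpha subunit that drives sustained firing from the axon initial segment and is mutated in the ataxic med and jolting mice. Its interior island of 121 reads (100.4 to 145) lay 38.9 kb into the gene, in the interval between its annotated starts and 24.5 kb from the nearer one (chromosome 15, 100908770 to 100911769). It overlapped the lncRNA Gm52176. For its width of 3000 bp it was at percentile 98.3 by reads, the highest of the 29 islands, with 8.07 reads per 200 bp. Scn3b, the beta subunit prominent in embryonic brain, had 1 gene-end island of 57 reads (43.2 to 73.9), which ended at the base before the gene (chromosome 9, 40267416 to 40269215). The beta genes Scn2b and Scn4b had none, with the nearest island 197 kb from Scn2b and 217 kb from Scn4b.

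The alpha genes of chromosome 2, Scn3a, Scn2a, Scn1a and Scn9a, lie in a cluster that also holds Scn7a. Scn1a, Scn2a and Scn3a are alpha subunits of the brain and Scn9a of peripheral neurons, and none had an island. The cluster of 1328 kb held 3 islands, of 48, 113 and 68 reads, at or near Csrnp3 and Ttc21b, which are not channel genes. The one of 68 reads was the nearest island to Scn1a, at 12.6 kb, and to Scn9a, at 222 kb, and the one of 48 reads the nearest to Scn2a, at 164 kb. The nearest island to Scn3a, of 45 reads, lay 42.8 kb away, outside the cluster. Scn10a, of sensory neurons, lies on chromosome 9 and had its nearest island 206 kb away.

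Of the 20 genes without an island, 5 had the nearest under 50 kb away, 12 between 50 and 300 kb and 3 farther, with a median of 159.8 kb. Just inside the limit of 5 kb was the island of Cacnb4, at 2.04 kb. Just outside were those of Cacnb1, at 12.2 kb with 43 reads, and Scn1a, at 12.6 kb. The genes with an island had a median length of 212 kb and those without 110.7 kb, and a longer gene gives more room for an island anywhere inside it.

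Read counts of the channel islands were much like those of the list. Their median was 74 reads (range 41 to 195), beside 68 in all islands, and their median width 2400 bp, beside 2200 bp. Reads per 200 bp had a median of 6.18, beside 6.27, and the median percentile among islands of the same width was 46.6. Wide islands of 4 kb or more were 4 of 29 (13.8%), beside 9.04% of the list, and all 4 were at Cacna2d1. Without that gene the median was 72 reads over 19 islands, none of them that wide. Wider islands held more reads, at a Spearman correlation of 0.948 over the 29 islands and 0.917 over the list. Reads per 200 bp were lower in wider islands, at -0.67 and -0.65. The lowest reads in the list were 33 at 1000 bp, 48 at 2000 bp and 61 at 3000 bp. This limit rises less steeply than width, so a narrow island is listed only when dense, which by itself favours a negative correlation. These are descriptions of islands from 1 library.

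**Figure D5:**
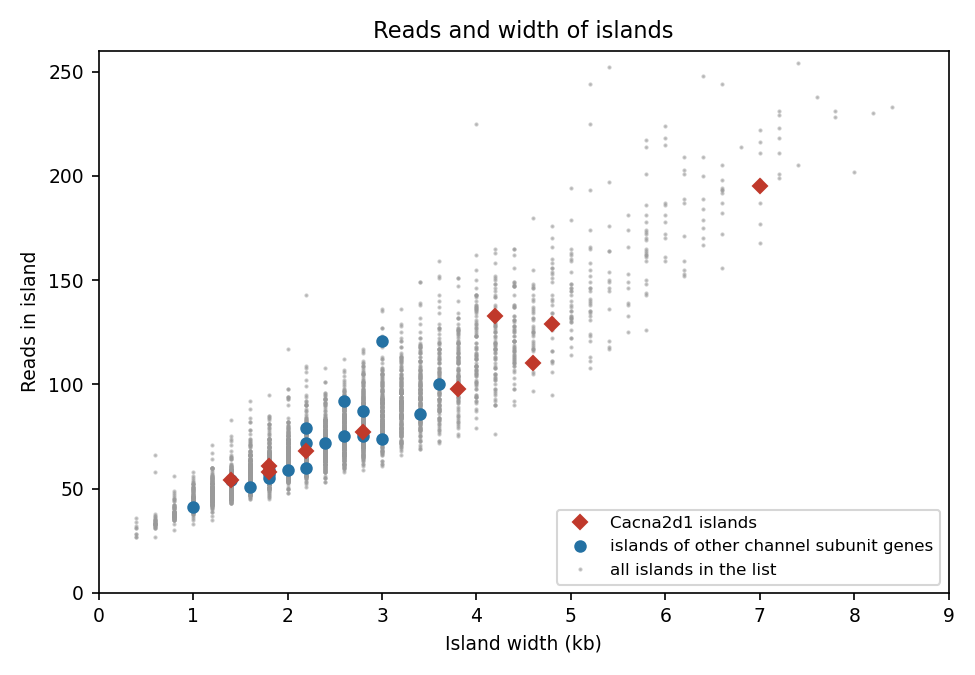
Reads in each island (vertical axis) against island width in kb (horizontal axis) for Cacna2d1 (red diamonds), the other channel subunit genes (blue circles) and all islands (grey). The channel islands lie within the band of the list, and the 4 widest, all of Cacna2d1, hold 110 to 195 reads (35 islands of the list lie beyond the axes).

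Related genes were counted by the same rule. Of 6 family genes outside the set (Cacna1f, Cacng1, Cacng6, Scn4a, Scn7a and Scn11a) none had an island, beside 16.9% of all protein-coding genes. Genes for potassium channels and their auxiliary proteins had islands in 13 of 42 (31.0%, Wilson 95% interval 19.1 to 46.0), beside 16.9% of all protein-coding genes. A gene-end island was present in 3 of 42, beside 13.1%, and an interior one in 10, beside 5.49%. The strongest were at Kcnq5 (117 reads), Kcnh2 (92), Kcnip1 (90) and Kcnj3 (81). The pacemaker and leak channel genes Hcn2, Hcn3, Hcn4, Nalcn, Unc79, Unc80 and Fam155a had islands in 0 of 7, beside 16.9%.

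Genes that carry calcium signals inside the cell had islands in 14 of 30 (46.7%, 30.2 to 63.9), beside 16.9% of all protein-coding genes. Their median length was 97.6 kb, beside 17.3 kb for all protein-coding genes, and the share with an island rose with gene length. The median was 79.9 kb for the potassium channel list, 231 kb for the pacemaker and leak list and 144 kb for the partners below. Counts of these lists were not split by gene length. In that list 10 of 30 genes had a gene-end island, beside 13.1% of all genes, and 7 an interior one, beside 5.49%. The strongest were the kinase gene Camk2d (125 reads), the plasma membrane calcium pumps Atp2b1 (120) and Atp2b2 (112), and calmodulin gene Calm2 (93). Partners that anchor channels or dock vesicles beside them had islands in 4 of 18 (22.2%, 9.001 to 45.2), beside 16.9% of all genes. The ankyrins Ank3 (5 interior islands, up to 87 reads) and Ank2 (4, up to 84) led, then Rims2 (77) and Fgf11 (54). Of 5 thrombospondin genes, whose products bind alpha2delta, Thbs2 alone (20%, beside 16.9%) had islands, the stronger of 85 reads.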

How the data were processed

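The labels describe 1 Brg1 ChIP library and 1 input library; the input was not analysed here. Per the submitters' processing notes, the authors used Bowtie 0.12.7, Picard 1.127 and SICER 1.1 and named the builds mm9 and mm10, with no role for each. The sources used here state neither the SICER settings nor any use of the input. The authors' deposited list gives each island a whole number, taken from its values as a count of reads, scaled neither for depth nor for width. Coordinates were read as counted from 0 with the last base included and are given from 1 on mm10, taken as the build of the list because 1368 islands covered a protein-coding start there.

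Islands were joined to RefSeq GRCm38.p6 gene extents on the autosomes and X (Python 3.11.15, pandas 2.3.3, scipy 1.17.1). Starts, strands and windows came from RefSeq start windows of the same build, and all 32 symbols matched the gene table. Assignment was tested on simulated islands. Shares carry Wilson and reads exact Poisson 95% intervals. No test was made, since there was 1 ChIP library. The genes, lists and classes were chosen with earlier results of these data known. Every gene of the set is named, and up to 4 per related list, by reads; some genes of those lists are not reported here. Alternatives were stricter read counts, islands of at least 1 kb, windows of 1 and 10 kb, midpoints, and removal of high-density islands. Leaving out Cacna2d1 was added after seeing the data.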

Additional observations from a re-analysis of the deposited data

How the results depend on the processing

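Of 62 alternative values 52 stayed close to those reported (counts within 1.5 times, medians within their 95% interval) and 10 moved. None of them changes a direction, as none is a difference. With the 1464 islands of 86 reads or more, 6 channel genes had an island, 2 a gene-end and 5 an interior one, with 10 distinct islands at a median of 105 reads, 5 of them at Cacna2d1, and 1127 protein-coding genes had one (5.21%). With the 2938 islands of 68 reads or more there were 18 distinct islands, and 2089 protein-coding genes had one. Without Cacna2d1, in an alternative added after seeing the data, 19 islands were left. No paired analysis was possible because there was 1 ChIP library. The library depth is unknown, so weak islands near the caller's limit and genes without an island cannot be told apart at this depth.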
